A study of Mus musculus with 6 samples.

Results

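The genes described here encode the proteasome, its activators and its closest helpers. They are the 42 rows, of 14882 in the deposited gene expression table, whose KEGG pathway annotation names the proteasome. Of these, 17 encode the core particle (Psma and Psmb genes), 17 the regulatory cap (Psmc and Psmd genes) and 5 activators (Psme genes). The remaining 3 are Pomp, Psmf1 and Shfm1. Psmb9, a catalytic subunit of the immunoproteasome, was not analysed here. RNA came from growth plate cartilage at the upper end of the tibia, from its hypertrophic zone, where chondrocytes enlarge before bone forms. The mice were 7 days old and of the C57BL/6 strain. There were 3 libraries from Adamts17-/- mice, homozygous for a mutant allele of a gene that encodes a secreted metalloprotease, and 3 from wild-type (WT) littermates. The labels give neither the making of the Adamts17 allele nor the number of animals behind a library, so a p-value covers the spread between libraries, which may be technical. Tissue was isolated by laser microdissection, and its messenger RNA was amplified before sequencing. The question addressed is how gene expression in the zone differs in Adamts17-/- mice.

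The proteasome is the chamber in which cells destroy proteins tagged with ubiquitin. Alpha subunits form the outer rings of its core and control entry, and beta subunits form the inner rings, some of which cut the substrate. The cap recognises ubiquitin, removes it, and unfolds the substrate with a ring of ATPases. Interferon replaces the cutting subunits by immunoproteasome forms and raises the PA28 activator. In chondrocytes the proteasome sets the lifetime of regulators such as beta-catenin, HIF1A and RUNX2. When proteasome activity falls short, the transcription factor NFE2L1 raises most proteasome genes through antioxidant response elements in their promoters.

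Promoter stretches of 4 genes are shown, picked from the catalytic subunits and the PA28 activator. Each runs from 100 bases before the RefSeq start of the gene to 30 bases after it, in GRCm38.p6, written 5′ to 3′ on the gene's strand. Capitals mark a match to an antioxidant response element core (TGACNNNGC) or an interferon-stimulated response element core (GAAA, any 2 bases, GAAA), searched on both strands.
Psmb5: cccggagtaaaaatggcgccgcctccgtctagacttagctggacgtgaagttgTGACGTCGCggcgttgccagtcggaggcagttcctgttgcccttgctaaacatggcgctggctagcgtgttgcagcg
Psmb6: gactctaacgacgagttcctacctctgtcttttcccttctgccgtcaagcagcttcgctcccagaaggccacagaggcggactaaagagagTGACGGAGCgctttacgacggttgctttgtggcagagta
Psmb8: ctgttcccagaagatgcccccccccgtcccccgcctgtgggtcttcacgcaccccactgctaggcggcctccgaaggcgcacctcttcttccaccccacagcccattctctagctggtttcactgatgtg
Psme1: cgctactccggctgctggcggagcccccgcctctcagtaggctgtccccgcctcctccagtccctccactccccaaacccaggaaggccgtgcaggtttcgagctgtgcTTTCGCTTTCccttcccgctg
The stretches lie at chr14:54617966-54618095, minus strand (Psmb5), chr11:70525257-70525386, plus strand (Psmb6), chr17:34198095-34198224, plus strand (Psmb8) and chr14:55578394-55578523, plus strand (Psme1). Promoter windows from 250 bases before to 50 after the start were found for 36 of the 42 genes. Of these 36 genes, 6 (16.7%) held the antioxidant core in a window, against 13.99% of the 27025 genes with a RefSeq window. These were Psmb5, Psmb6, Psmc6, Psmd12, Psme4 and Shfm1. The interferon core was held by Psmb3, Psmd4 and Psme1, 3 of 36 (8.33%), against 3.99% of all genes. Psmb10, Psmb11 and Psme2, of the same groups as the genes shown, held neither core in their windows. The stretches shown therefore do not stand for the share of members with a match. A match describes letters in this window and is not a binding site.

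The libraries were shallow and uneven. The deposited values, whose unit is not named, are read here as RPKM, that is, reads scaled to transcript length and library size. Times length in kb, they summed to between 581833 in WT replicate 1 and 1.28e+06 in Adamts17-/- replicate 2, so the libraries differed in scale. Each library's RPKM times length fell on a grid, which allowed reads on listed genes to be recovered as read equivalents. These totalled 595989 to 2688295 in Adamts17-/- and 722119 to 1662637 in WT. Genes listed at 0 numbered 2112 to 3153 in Adamts17-/- and 391 to 3108 in WT. Adamts17 itself summed to 1.25 read equivalents in Adamts17-/- and 6.49 in WT, too few to check the labels. Hypertrophic markers were present throughout, with all 10 of the markers listed, among them Col10a1, above 0 in all 6 libraries. All 11 cartilage matrix markers had a log2 fold change below 0, and Fmod and Lect1 were at 0 in Adamts17-/- replicates 1 and 2. Adamts17-/- replicate 2 stood apart with a summed neutrophil and myeloid marker level of 67080.0 RPKM, against 85.9 and 2530 in the other Adamts17-/- libraries and 33.9 to 2258 in WT. WT replicate 1 stood apart with a summed skeletal muscle level of 17618 RPKM, against 362 to 561 in Adamts17-/- and 258 and 1566 in the other WT libraries.

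Of the 252 values of proteasome genes, 234 were above 0, and no member passed the test of a difference between the genotypes. By limma over all 9128 tested genes, 0 genes (0% of those tested) were called higher and 0 (0%) lower at an adjusted p under 0.05. The limma adjusted p of every member was 0.999. The SE of a member's log2 fold change, on the log2(RPKM + 1) scale, lay between 1.10 and 1.80. Each SE and p here is moderated by limma. They draw on the spread of all tested genes, not on the gene's own libraries alone. All 42 members passed the filter on low values. Of these, 27 had a log2 fold change above 0 and 15 below it, or 64.3% above, against 52.8% of all tested genes and 59.5% of those that averaged 20 RPKM or more. With upper-quartile or quantile scaling the members divided 23 to 19. At an unadjusted p under 0.05 there was 1 member higher and 0 lower, against 1.14% and 1.37% of all tested genes. Groups that did not overlap were seen for 3 members on the higher side and 1 on the lower, against 3.09% and 3.54% of all tested genes.

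**Figure D1:**
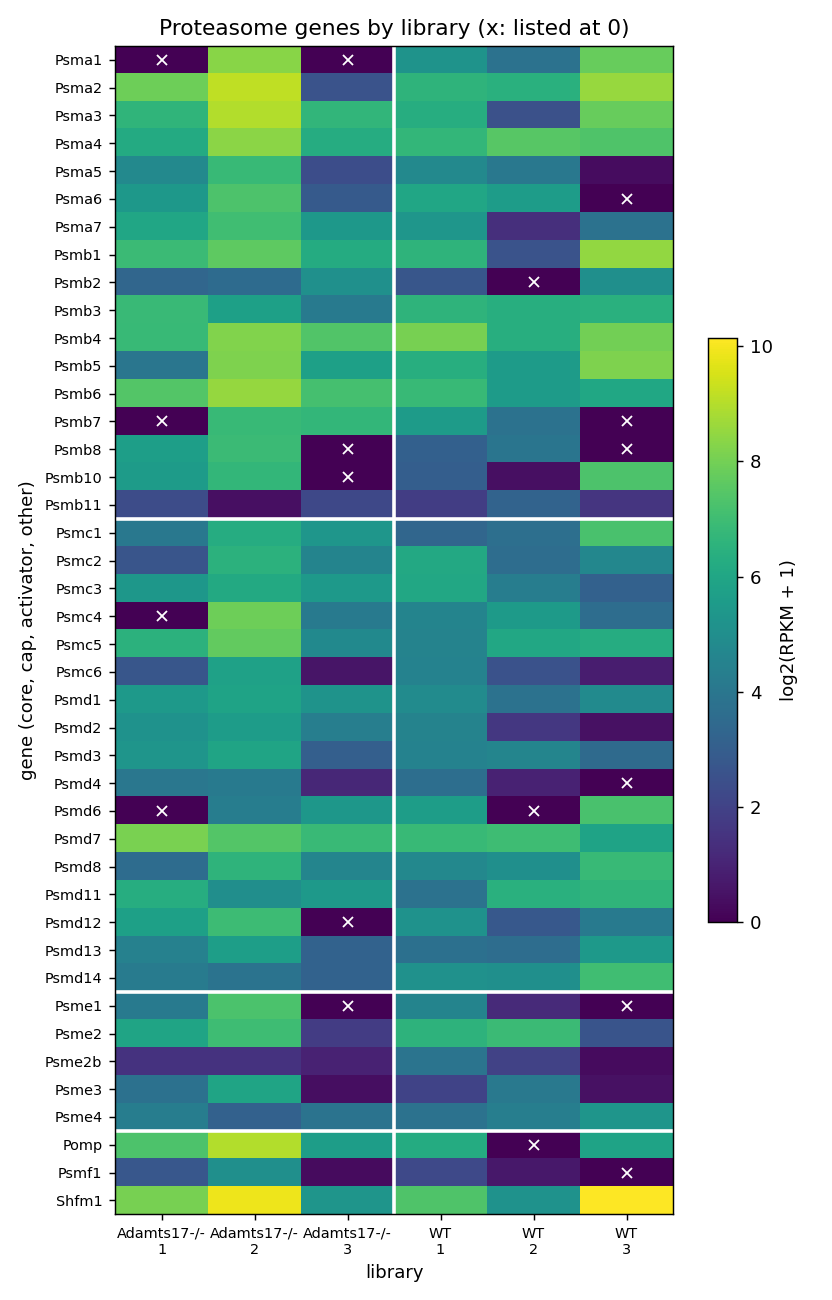
Level of each of the 42 proteasome genes, as log2(RPKM + 1) by colour, in the 3 Adamts17-/- and the 3 WT libraries. White crosses mark the 18 values listed at 0, none of which lies in Adamts17-/- replicate 2 or WT replicate 1.

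One library carried most of the higher values. Adamts17-/- replicate 2 held the highest value of 27 of the 42 members (64.3%), against 32.8% of the 2836 genes averaging 20 RPKM or more. It was followed by WT replicate 3 with 10 members, while no other library held more than 2. The median member was at 36.3, 107.6 and 18.1 RPKM in Adamts17-/- replicates 1, 2 and 3 and at 31.2, 13.9 and 35.1 RPKM in WT. Proteasome genes took 0.359%, 0.616% and 0.197% of read equivalents in Adamts17-/- and 0.443%, 0.194% and 0.444% in WT. The groups therefore overlapped on both measures, with the highest and a low library on the Adamts17-/- side. Without Adamts17-/- replicate 2, members above and below 0 numbered 20 and 22, and the median log2 fold change of the 42 was -0.05, against 0.49 with all libraries. Without WT replicate 1 as well, they numbered 19 and 23. Replicate 2 was also the library with the highest summed erythroid level, 264419 RPKM, against 3712 and 20086 in the other Adamts17-/- libraries and 3231 to 69748 in WT. That sum counts 2 globin rows that hold equal values. All 9 tested erythroid markers and 8 of 9 tested neutrophil and myeloid markers had a log2 fold change above 0, against 4 of 9 and 3 of 9 without replicate 2. Without WT replicate 1 as well, 2 of 9 erythroid and 8 of 9 neutrophil and myeloid markers were above 0. Among the myeloid markers, S100a9 and Lcn2 were at 0 in Adamts17-/- replicate 3 and in WT replicate 3, and none was at 0 in Adamts17-/- replicate 2. Of the proliferation markers 10 of 11 were above 0, against 8 of 11 without replicate 2 and 8 of 11 without both libraries. In bulk RNA, more cells of a type and more RNA per cell cannot be told apart, and the part of these cells in the proteasome values was not tested.

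**Figure D2:**
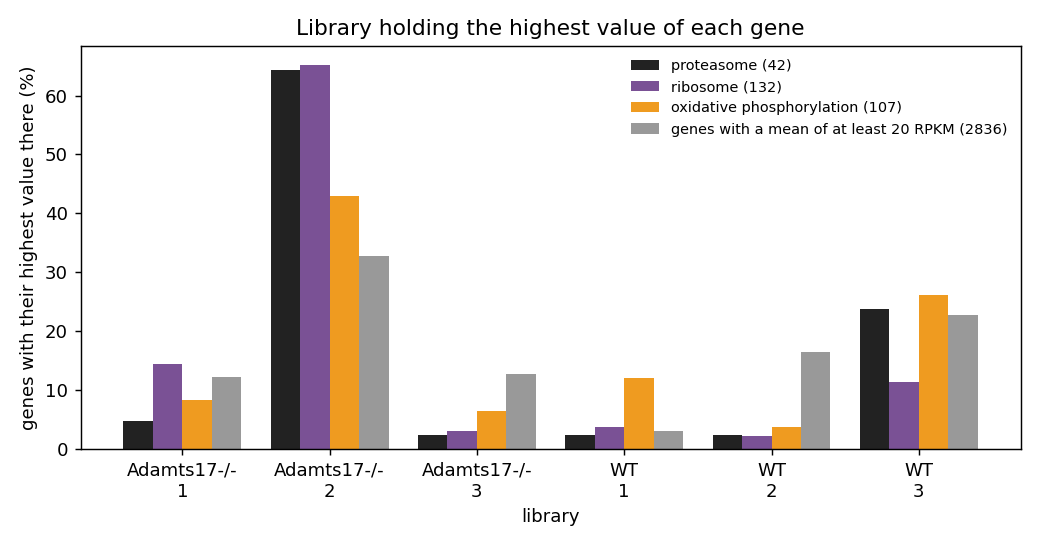
Share of genes (%) whose highest value lies in each library, for proteasome genes, for 2 other gene sets of the deposited annotation and for genes averaging 20 RPKM or more. The bar for proteasome genes reaches 64.3% in Adamts17-/- replicate 2, close in height to that of ribosome genes.

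Other gene sets of the deposited annotation were set beside the proteasome. They differ in level. The median gene of ubiquitin-mediated proteolysis reached at most 9.98 RPKM in a library, while the median proteasome gene was at 13.9 RPKM or more. Of 132 ribosome genes 86 (65.2%) had their highest value in Adamts17-/- replicate 2, as had 46 of 107 oxidative phosphorylation genes (42.99%) and 44 of 128 genes of ubiquitin-mediated proteolysis (34.4%). The median log2 fold change was 0.86 for ribosome genes, 0.43 for oxidative phosphorylation, 0.19 for ubiquitin-mediated proteolysis and 0.49 for the proteasome, against 0.08 for all tested genes and 0.29 for those averaging 20 RPKM or more. Without Adamts17-/- replicate 2 the medians were 0.37 for ribosome genes, -0.17 for oxidative phosphorylation, -0.13 for ubiquitin-mediated proteolysis and -0.05 for the proteasome, against 0.02 and 0.24 for those wider sets. Without WT replicate 1 as well, they were 0.31, 0.16, -0.01 and -0.08 in that order, against 0.10 and 0.24. The differences between these sets were not tested.

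Single members went in and out of detection between libraries. Of 252 member values, 18 in 13 genes were listed at 0. Psma1, an alpha subunit, was listed at 0 in Adamts17-/- replicates 1 and 3, where the mean of its other 5 libraries would have given 153 and 95.1 read equivalents. Pomp was listed at 0 in WT replicate 2, where the same reckoning gives 96.4. Among 36 members averaging 50 or more read equivalents, 13 (36.1%) had 1 or fewer in a library, against 41.5% of 4179 such genes in the table and 10.6% of 104 such ribosome genes. Subunits that share a ring could differ widely within 1 library. In Adamts17-/- replicate 1 the alpha subunits ran from 0 (Psma1) to 239.7 RPKM (Psma2).

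**Figure D3:**
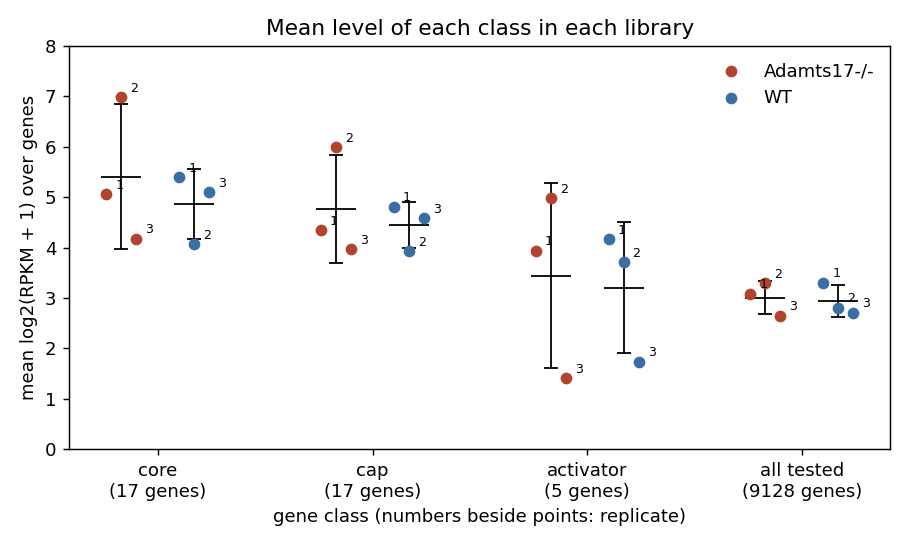
Mean log2(RPKM + 1) over the genes of each class in each library (points, numbered by replicate), with the group mean and SD (bars, n = 3). Adamts17-/- replicate 2 is the highest library for core, cap and activator genes, and the other points of both genotypes overlap.

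The core genes had a mean log2(RPKM + 1) of 5.05, 6.99 and 4.17 in Adamts17-/- and 5.39, 4.07 and 5.10 in WT, or 5.41 ± 1.44 and 4.86 ± 0.69 (SD, n = 3 each). Of the 17 genes, 11 had a log2 fold change above 0 and 6 below, with a median of 1.05, which was 0.23 without Adamts17-/- replicate 2 and -0.04 without WT replicate 2. Among alpha subunits, Psma2 had the highest mean level. It was at 239.7, 582 and 4.97 RPKM in Adamts17-/- and 96.9, 85.7 and 381 RPKM in WT. Its log2 fold change was -0.65 ± 1.36 (moderated SE, n = 3 per group, as below). That is a high value in Adamts17-/- replicate 2 beside a low one in replicate 3, with the WT values in between.

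Psma7 (chr2:180036367-180042464), an alpha subunit, was at 63.6, 129 and 41.6 RPKM in Adamts17-/- and 39.4, 1.600 and 13.2 RPKM in WT. All 3 Adamts17-/- libraries lay above all 3 WT libraries, and the log2 fold change was 2.63 ± 1.39 (limma unadjusted p = 0.0670). The smallest gap between the groups was that between 41.6 and 39.4 RPKM, Adamts17-/- replicate 3 and WT replicate 1. The value in WT replicate 2 rested on 2 read equivalents. Psma3 was at 99.02, 503 and 101 RPKM in Adamts17-/- and 77.99, 4.69 and 220.1 RPKM in WT, with a log2 fold change of 1.899 ± 1.31, and WT replicate 2 was its lowest library. Psma1 had the largest negative value among the members, -2.83 ± 1.76. It was at 0, 323 and 0 RPKM in Adamts17-/- and 36.2, 13.2 and 221 RPKM in WT, so that the library with the highest value and both libraries listed at 0 were Adamts17-/-. Without replicate 2 its log2 fold change was -5.61. The other alpha subunits, Psma4, Psma5 and Psma6, had log2 fold changes of -0.23, 1.59 and 1.33, and Psma6 was listed at 0 in WT replicate 3.

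Of the non-catalytic beta subunits, Psmb4 had the highest mean level and was nearly even between the groups. It was at 114, 294 and 169 RPKM in Adamts17-/- and 268, 81.8 and 253 RPKM in WT, with a log2 fold change of 0.01 ± 1.101, which was -0.25 with upper-quartile and -0.34 with quantile scaling. Psmb3 was at 116, 53.5 and 17.2 RPKM in Adamts17-/- and 94.8, 81.8 and 86.3 RPKM in WT (-0.86 ± 1.23). Psmb1 was at 120.3, 198 and 74.2 RPKM in Adamts17-/- and 94.97, 4.98 and 359.9 RPKM in WT (1.05 ± 1.33), with its lowest and its highest values both in WT. Psmb2, the lowest of the 4 by mean level, was at 9.19, 10.7 and 33.3 RPKM in Adamts17-/- and 5.51, 0 and 31.7 RPKM in WT (1.42 ± 1.601).

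The constitutive catalytic subunits had no common direction. Psmb6 (chr11:70525357-70527858), which carries the caspase-like site, was at 171, 371 and 142 RPKM in Adamts17-/- and 112, 46.7 and 64.3 RPKM in WT. All 3 Adamts17-/- libraries lay above all 3 WT libraries, with a log2 fold change of 1.57 ± 1.13 (limma unadjusted p = 0.177). It ran from 1.15 to 1.91 with 1 library left out, where the sign could not turn because the groups do not overlap. Psmb5 (chr14:54614120-54617995), which carries the chymotrypsin-like site and whose promoter stretch also holds an antioxidant core, was at 14.6, 289.8 and 54.00 RPKM in Adamts17-/- and 81.6, 46.8 and 290.1 RPKM in WT. Its highest values lay in Adamts17-/- replicate 2 and WT replicate 3, nearly equal, and its log2 fold change was -0.73 ± 1.28. Psmb7, which carries the trypsin-like site, was at 0, 114 and 105 RPKM in Adamts17-/- and 46.9, 13.3 and 0 RPKM in WT, with 1 library listed at 0 on each side (1.38 ± 1.75). Without Adamts17-/- replicate 1 its log2 fold change was 3.65, and without WT replicate 3 it was -0.19.

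Immunoproteasome subunits were present in some libraries of both genotypes. Psmb8 (chr17:34198195-34201454), which takes the place of Psmb5, was at 50.1, 119 and 0 RPKM in Adamts17-/- and 7.73, 14.6 and 0 RPKM in WT. Both replicates 3 were listed at 0, and the log2 fold change was 1.83 ± 1.74. Psmb10, which takes the place of Psmb7, was at 45.99, 104 and 0 RPKM in Adamts17-/- and 7.16, 0.334 and 158 RPKM in WT (0.501 ± 1.76), with its highest value in WT replicate 3. In that library Psmb7 was listed at 0, and Psmb10 lay above its constitutive partner. In Adamts17-/- replicate 1 both immunoproteasome genes lay above their partners, Psmb8 at 50.1 against 14.6 RPKM of Psmb5 and Psmb10 at 45.99 against 0 of Psmb7. In Adamts17-/- replicates 2 and 3 and in WT replicates 1 and 2 both lay below them. Lymphocyte markers, from cells rich in immunoproteasome, summed to 74.7, 371 and 70.4 RPKM in Adamts17-/- and 43.1, 52.5 and 4.22 RPKM in WT. Of the 6 lymphocyte markers in the table, Cd79b was at 0 in Adamts17-/- replicates 1 and 3 and in WT replicates 2 and 3, and Cd3e and Cd3g were at 0 in Adamts17-/- replicate 2. The part of these cells in the Psmb8 and Psmb10 values was not tested.

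Psmb11, a catalytic subunit known from the cortical epithelium of the thymus, was the lowest member by mean level. It was at 4.18, 0.324 and 3.58 RPKM in Adamts17-/- and 2.57, 8.25 and 1.95 RPKM in WT (-0.55 ± 1.41). It was lowest in Adamts17-/- replicate 2, the library in which most members were highest. There it rested on 2.89 read equivalents, and it had at most 31.2, in WT replicate 1. None of its 6 values was a whole number of read equivalents within 0.01, so its values are uncertain. Over the 6 libraries, its Pearson correlation with the mean of the other core genes was -0.92, while the other 16 core genes had correlations between 0.0453 and 0.722 with the mean of the rest. These correlations share library depth and scaling and are given as a description.

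**Figure D4:**
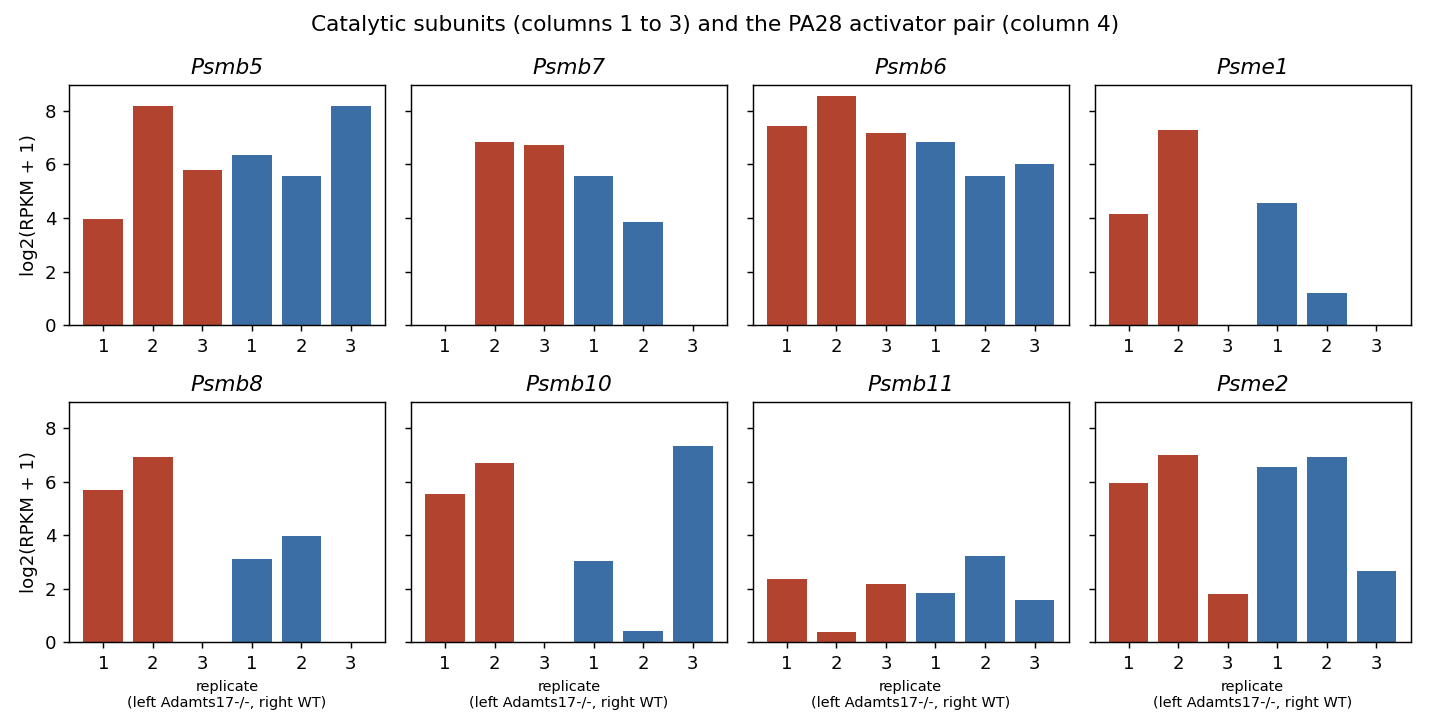
Bars give log2(RPKM + 1) in each Adamts17-/- (red) and WT (blue) library for the catalytic core subunits, with Psmb5, Psmb7 and Psmb6 above Psmb8, Psmb10 and Psmb11, and for the activator genes Psme1 and Psme2. Psmb6 is higher in all 3 Adamts17-/- libraries than in WT, and Psmb8 and Psme1 are listed at 0 in replicate 3 of both genotypes.

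The cap genes had a mean log2(RPKM + 1) of 4.34, 5.99 and 3.96 in Adamts17-/- and 4.81, 3.93 and 4.58 in WT, or 4.76 ± 1.08 and 4.44 ± 0.46 (SD, n = 3 each). Of the 17 genes, 11 had a log2 fold change above 0 and 6 below, with a median of 0.42. Without Adamts17-/- replicate 2 these were 7 and 10, with a median of -0.06. With upper-quartile or quantile scaling the cap genes divided 9 to 8.

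Of the 6 ATPases, which form the unfolding ring, 4 had a log2 fold change above 0 and 2 below. Psmc5 had the highest mean level. It was at 90.03, 207 and 27.01 RPKM in Adamts17-/- and 21.9, 66.8 and 76.9 RPKM in WT (0.71 ± 1.25), with its highest value in Adamts17-/- replicate 2. Psmc3 was at 40.5, 69.7 and 43.2 RPKM in Adamts17-/- and 66.6, 18.7 and 7.86 RPKM in WT (1.15 ± 1.33), with the lowest values in WT replicates 2 and 3. Psmc2 was at 5.46, 90.7 and 23.03 RPKM in Adamts17-/- and 68.7, 11.4 and 24.7 RPKM in WT (-0.21 ± 1.41). Psmc4 was at 0, 237 and 16.6 RPKM in Adamts17-/- and 22.8, 45.4 and 11.4 RPKM in WT (-0.57 ± 1.61), so the Adamts17-/- libraries held both the highest value and the single one listed at 0. Psmc1 and Psmc6 had log2 fold changes of 0.47 and 0.42.

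Of the 11 non-ATPase cap genes, 7 had a log2 fold change above 0 and 4 below. Psmd14 (chr2:61711694-61800376), the deubiquitinase that strips ubiquitin from substrates, was at 17.7, 13.6 and 8.14 RPKM in Adamts17-/- and 33.8, 32.2 and 128 RPKM in WT. Every Adamts17-/- value was under every WT value, with a log2 fold change of -1.97 ± 1.35 (limma unadjusted p = 0.154). It ran from -2.31 to -1.33 with 1 library left out, where groups that do not overlap must keep their sign. Psmd7, whose product pairs with that of Psmd14 in the lid of the cap, had the highest mean level of the group. It was at 274, 169 and 118 RPKM in Adamts17-/- and 113, 126 and 57.7 RPKM in WT (0.899 ± 1.12), and its highest value lay in Adamts17-/- replicate 1.

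Both large scaffold subunits had a log2 fold change above 0. Psmd1 (chr1:86064619-86139295) was at 43.7, 58.1 and 36.2 RPKM in Adamts17-/- and 28.5, 13.2 and 28.2 RPKM in WT (1.002 ± 1.301, limma unadjusted p = 0.447). All 3 Adamts17-/- libraries lay above all 3 WT libraries. Psmd2 was at 35.1, 47.9 and 19.03 RPKM in Adamts17-/- and 21.9, 2.08 and 0.383 RPKM in WT (2.83 ± 1.53, limma unadjusted p = 0.0728), with WT replicate 1 above Adamts17-/- replicate 3 as the sole overlap. Its values in WT replicates 2 and 3 rested on 5 and 1 read equivalents. Psmd4, a ubiquitin receptor of the cap, was low, at 15.2, 16.7 and 1.17 RPKM in Adamts17-/- and 11.7, 0.947 and 0 RPKM in WT (1.55 ± 1.62). Psmd6, a lid subunit, was at 0, 18.8 and 40.2 RPKM in Adamts17-/- and 49.7, 0 and 148 RPKM in WT (-1.07 ± 1.74), listed at 0 once in each genotype. The remaining cap genes, Psmd3, Psmd8, Psmd11, Psmd12 and Psmd13, had log2 fold changes of 0.55, -0.60, -0.04, 0.20 and 0.16. Shfm1, which encodes a small lid protein that also serves other complexes, had the highest mean level of all 42 members. It was at 265, 943 and 38.3 RPKM in Adamts17-/- and 161, 35.00 and 1127 RPKM in WT (0.19 ± 1.27), and Adamts17-/- replicate 2 and WT replicate 3 stood far above the other 4 libraries.

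**Figure D5:**
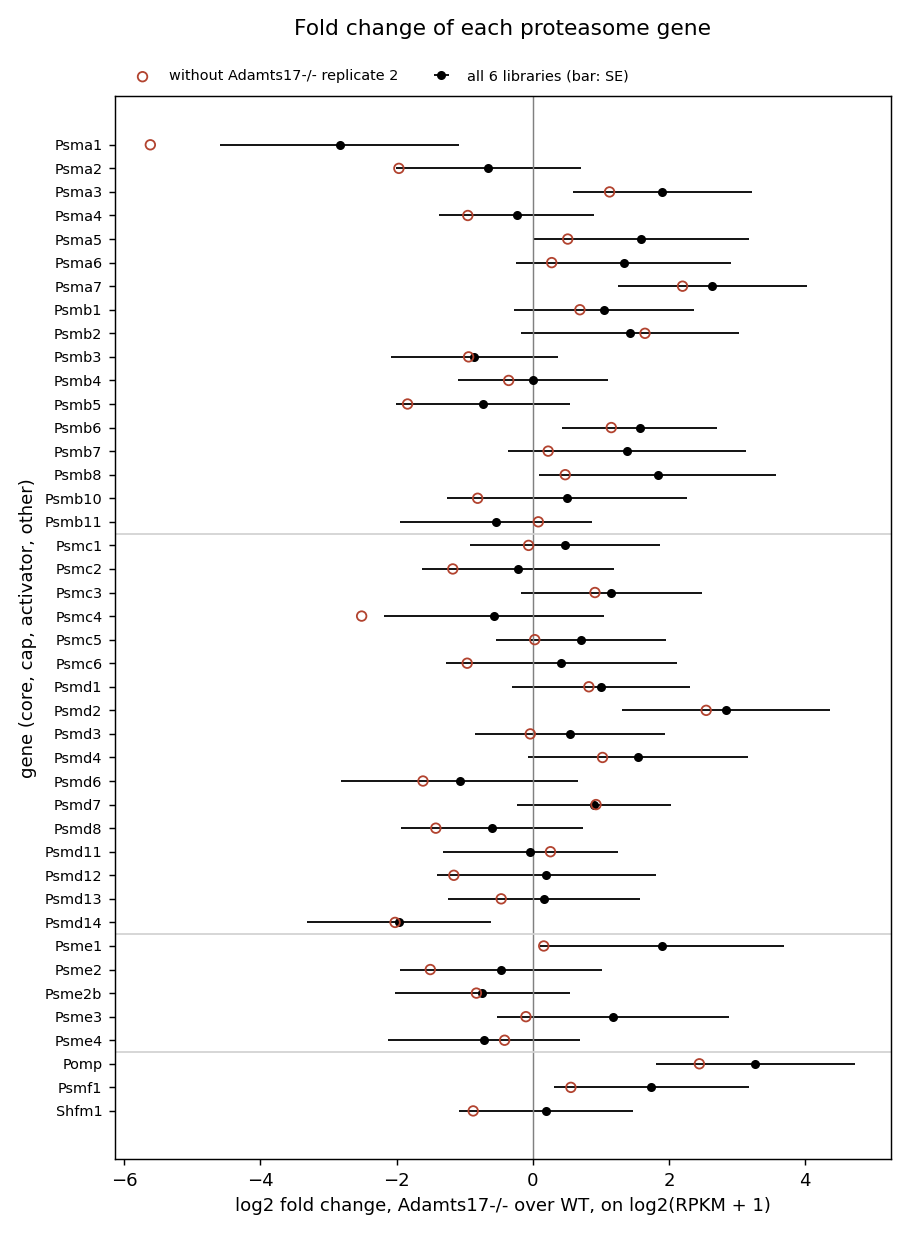
Log2 fold change of each member, Adamts17-/- over WT, on the log2(RPKM + 1) scale with its SE from limma (filled points and bars, all 6 libraries) and without Adamts17-/- replicate 2 (open points). Most bars cross 0, Pomp and Psma1 mark the ends of the range at 3.27 and -2.83, and the open points lie mainly to the left of the filled ones.

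The mean of the activators varied more between libraries than those of the core and cap genes, but it covers 5 genes against 17 each. The SD of the mean was 1.84 in Adamts17-/- and 1.29 in WT for the activators, but 2.16 and 0.69 for the 7 alpha subunits. The median SE of a gene was 1.48 for activators and 1.39 for core and for cap genes. The activator mean log2(RPKM + 1) was 3.93, 4.97 and 1.40 in Adamts17-/- and 4.17, 3.71 and 1.74 in WT. Replicate 3 was the lowest library of each genotype. Of the 5 genes, 2 had a log2 fold change above 0 and 3 below. Psme1 (chr14:55578494-55581527) and Psme2 (chr14:55587440-55591101) encode the interferon-induced PA28 pair and lie 5912 bases apart. Psme1 was at 16.9, 155 and 0 RPKM in Adamts17-/- and 22.6, 1.303 and 0 RPKM in WT (1.89 ± 1.795), and Psme2 at 60.3, 127 and 2.49 RPKM in Adamts17-/- and 93.3, 119.9 and 5.26 RPKM in WT (-0.46 ± 1.48). Psme2 thus stayed high in WT replicate 2, where Psme1 rested on 1 read equivalent. Without Adamts17-/- replicate 3 the log2 fold change of Psme2 was 1.09. Psme1 overlaps Emc9 on the other strand, and the libraries do not keep strand, so reads from the shared stretch cannot be told apart. Emc9 held 3.38 and 15.4 read equivalents in Adamts17-/- replicate 3 and WT replicate 3, where Psme1 was listed at 0.

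Psme3, which encodes the nuclear activator PA28 gamma, was at 12.7, 59.99 and 0.315 RPKM in Adamts17-/- and 3.08, 16.04 and 0.359 RPKM in WT (1.18 ± 1.71), and it too was near 0 in both replicates 3. Psme4, which encodes the large activator PA200, had the smallest ratio of highest to lowest value over the libraries among the activators. It was at 18.5, 7.93 and 13.6 RPKM in Adamts17-/- and 13.1, 19.4 and 38.4 RPKM in WT (-0.72 ± 1.41) and was highest in WT replicate 3. Psme2b was at 1.84, 1.82 and 0.939 RPKM in Adamts17-/- and 13.8, 3.005 and 0.221 RPKM in WT (-0.74 ± 1.29). Its row spans 1059 bases with a transcript of 1059 bases, a single exon, and reads from Psme2 could be counted on it or the reverse, so its values are uncertain.

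Pomp (chr5:147860628-147875778), the chaperone that assembles the core and is then destroyed by it, had the largest positive value among the members and the smallest unadjusted p. It was at 159, 495 and 49.1 RPKM in Adamts17-/- and 75.4, 0 and 57.4 RPKM in WT, with a log2 fold change of 3.27 ± 1.47 (limma unadjusted p = 0.0332, adjusted p = 0.999). The groups overlapped, with WT replicates 1 and 3 above Adamts17-/- replicate 3. Leaving out WT replicate 2 gave 1.25 and leaving out WT replicate 1 gave 4.38, the ends of the leave-one-out range. Psmf1, which encodes the proteasome-binding protein PI31, was at 5.73, 32.2 and 0.221 RPKM in Adamts17-/- and 3.69, 0.569 and 0 RPKM in WT (1.74 ± 1.43). Over all members, leaving out each library in turn kept 15 above 0 and 4 below 0 in all 6 fits, and turned the sign of the other 23 at least once. The 4 below 0 were Psma1, Psmb3, Psmd14 and Psme4. Members whose groups did not overlap, Psmd14 among them, could not turn sign in these fits.

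Genes that act with the proteasome were counted in lists chosen for their roles, and none of them was called. Of 11 tested genes of proteasome assembly and regulation that are not among the 42, 10 had a log2 fold change above 0 and 1 below, with a median of 0.46, and without Adamts17-/- replicate 2 they divided 6 to 5. Psmg4, an assembly chaperone, was at 5.27, 12.04 and 45.3 RPKM in Adamts17-/- and 6.32, 0 and 0 RPKM in WT (3.01 ± 1.62), and Adrm1, a ubiquitin receptor, at 12.9, 84.4 and 60.3 RPKM in Adamts17-/- and 31.8, 0 and 13.9 RPKM in WT (2.41 ± 1.52). Nub1 was the 1 gene below 0 (-0.66 ± 1.59). Of 19 genes of ubiquitin supply and shuttling, 14 were above 0 and 5 below (median 0.24), and 9 and 10 without Adamts17-/- replicate 2. Among them were the ligase genes Ube3a (1.73 ± 1.62) and Ube4b (-1.58 ± 1.64) and the shuttle gene Rad23b (-1.47 ± 1.65). The summed level of that list was 4233, 8379 and 1896 RPKM in Adamts17-/- and 2079.8, 1323 and 3946 RPKM in WT, again with Adamts17-/- replicate 2 the highest.

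The NFE2L1 list had 5 of 8 tested genes above 0 and 3 below, with a median of 0.10, and 3 and 5 without Adamts17-/- replicate 2. Nfe2l1 itself was at 1.22, 2.57 and 0.419 RPKM in Adamts17-/- and 5.33, 9.87 and 22.8 RPKM in WT (-2.396 ± 1.56, limma unadjusted p = 0.134). Mafg, which encodes a small MAF partner of NFE2L1, was at 2.25, 20.98 and 0.106 RPKM in Adamts17-/- and 27.6, 33.6 and 46.4 RPKM in WT (-3.07 ± 1.53, limma unadjusted p = 0.0528). For both genes every Adamts17-/- value was under every WT value, which held for 3.54% of all tested genes. Ngly1, the glycanase that processes NFE2L1, was at 5.396, 0.863 and 26.7 RPKM in Adamts17-/- and 3.64, 0 and 0.0503 RPKM in WT (2.03 ± 1.38), and Syvn1 was at 0.48 ± 0.795. The level of NFE2L1 protein, by which its activity is mainly set, was not measured.

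Of 16 tested genes of class I antigen presentation and the interferon response, 12 were above 0 and 4 below, with a median of 0.64, and 11 and 5 without Adamts17-/- replicate 2. Irf7, a transcription factor of the interferon response, was at 21.99, 18.7 and 6.75 RPKM in Adamts17-/- and 1.14, 0 and 3.66 RPKM in WT (2.82 ± 1.58, limma unadjusted p = 0.0848). It was higher in every Adamts17-/- library than in any WT library, as were 3.09% of all tested genes. On the lower side were the class I gene H2-K1 (-0.81 ± 1.67) and the chaperone gene Pdia3 (-0.62 ± 1.65). Psmb8 and Psme1, which interferon is known to raise, were listed at 0 in Adamts17-/- replicate 3, the Adamts17-/- library in which Irf7 was lowest.

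Of 15 tested ubiquitin ligases and substrates of chondrocytes, 11 were above 0 and 4 below (median 0.36), and 9 and 6 without Adamts17-/- replicate 2. The scaffold genes Cul1 (11.4, 10.4 and 0 RPKM in Adamts17-/- and 22.2, 14.1 and 54.4 RPKM in WT, -2.37 ± 1.54) and Cul3 (16.2, 13.1 and 5.67 RPKM in Adamts17-/- and 17.6, 23.5 and 57.9 RPKM in WT, -1.35 ± 1.401) had Adamts17-/- libraries that all lay below WT. The same held for 3.54% of all tested genes. Itch (1.47 ± 1.24) and Fbxw7 (1.44 ± 1.63) were on the other side. Of 12 genes of heat shock and protein stress, 8 were above 0 and 4 below (median 0.55), and 6 and 6 without Adamts17-/- replicate 2. Hspd1, the mitochondrial chaperonin, was at 53.5, 70.99 and 12.9 RPKM in Adamts17-/- and 13.9, 0.136 and 0 RPKM in WT (3.89 ± 1.59, limma unadjusted p = 0.0203, adjusted p = 0.999), and Ddit3 was at 2.11 ± 1.505. Bag3 was at -2.99 ± 1.68 and Hspb1 at -2.22 ± 1.82.

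The 5 genes most like the core genes, by Pearson correlation of log2(RPKM + 1) with the core mean over the 6 libraries, were Col1a2, Plac8, Txnip, Pdcd2 and Tmem59. They came from a search of 2802 genes averaging 20 RPKM or more, and their correlations lay between 0.976 and 0.983. Col1a2, a chain of the collagen of bone, was at 332, 3610.1 and 66.2 RPKM in Adamts17-/- and 607, 44.2 and 401 RPKM in WT. All 5 had their highest value in Adamts17-/- replicate 2, as did the core mean. Col1a2, Txnip and Tmem59 ordered all 6 libraries as the core mean did, with a Spearman rho of 1, while Plac8 and Pdcd2 had a rho of 0.771 and 0.754. The points share library depth and scaling, and the likeness is given as a description.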

How the data were processed

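The authors deposited 1 normalized value per gene and library, read here as RPKM: the unit is not named, but times transcript length the values fall on multiples of 1 step per library, and the table's name gives a TMM scaling. Those steps are often fractions of a read (23.7% to 34.5% of values between 1 and 20 were whole within 0.01), so no count model was used. Per the labels' protocols, the authors microdissected the zone, amplified its RNA linearly and made TruSeq RNA libraries, a kit that does not keep strand; for the aligner, counter and build, not given in the sources used here, nothing is assumed. Amplification from few cells can lose or inflate single genes. Coordinates are the table's own: all 42 genes were found by gene ID in RefSeq GRCm38.p6, 39 with a start within 1000 bases. Genes at 1 RPKM or more in at least 3 libraries (9128) were fitted on log2(RPKM + 1) with limma 3.58.1 (R 4.3.3; moderated, with trend), Adamts17-/- over WT, with Benjamini-Hochberg adjustment over all of them and a threshold of 0.05. The procedure was tested on simulated data, where it had to recover large changes only at a spread well below that of these data. Recovery at the real spread is not given here. Values in every library are given for catalytic subunits, activators, members outside core and cap, members whose groups do not overlap and, in each subunit family, the highest mean level and the 2 largest differences in each direction; from each list, at most 2 genes a direction, less some not reported here. The members and lists were chosen with earlier results of these data known.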

Additional observations from a re-analysis of the deposited data

How the results depend on the processing

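The fit was repeated under 16 alternatives, and no proteasome gene was called in any (smallest limma adjusted p 0.346). Of all tested genes, limma called 0 in each direction as reported (104 and 125 at an unadjusted p under 0.05, and 135 to 799 in all under the alternatives). With library weights 1 gene was called lower. With 1 library left out, 0 to 5 genes were called higher, the 5 without Adamts17-/- replicate 3, and 0 lower. Medians of the log2 fold change with 1 library left out ran from -0.05 to 1.22 for all 42 genes, -0.04 to 1.39 for core, -0.06 to 1.16 for cap and -0.83 to 1.09 for activators. Without both Adamts17-/- replicate 2 and WT replicate 1 the cap median was -0.53. Of 509 member values under the alternatives, 41, in 17 of 32 named members, had the other sign. Upper-quartile scaling moved the median of all genes to -0.12, against 0.08. With a minimum of 5 RPKM, 39 members were tested and the activator median was 0.36. The replicate block called 0 genes, higher or lower; deviations of libraries with the same number correlated at -0.0075, -0.35 and -0.10, so the numbers show no pairing. With 3 libraries a group, an exact permutation test cannot go below p = 0.10, and the lowest members, Psmb11 and Psme2b, rest on few reads.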

Other observations

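Of 234 member values above 0, 135 were whole read equivalents within 0.01. Psmb1, Psma3, Psmd1, Psmf1 and Psmb11 were whole in none of their libraries, while Psmc1 and Psmd14 were whole in all 6.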
